A study of Homo sapiens with 39 samples.

Results

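HRAS, NRAS, SRC, KIT, PDGFA, MYB and TERT are oncogenes in whose promoter or 5′ UTR a G-quadruplex has been reported, and they were followed here in cells given G-rich oligonucleotides that can fold into the same kind of structure. The genes were taken from a list of these 7 symbols and matched to the probe sets of the array platform by its probe-to-gene table, without regard to their values. Of the 7 genes, 6 were measured, by 15 of the 44988 probe sets with a single symbol, among 18132 genes in all. NRAS has no probe set in the table used and is not analysed here.

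The cells were U937, an established human histiocytic lymphoma line with features of immature monocytes. Exponentially growing cultures received 10 µM of Pu27, Pu9- or Pu5- for 24, 48 or 72 h, or no oligonucleotide. Untreated cells were collected at 0, 24, 48 and 72 h, so that 39 arrays fell into 13 groups of 3 repeat experiments. No group received an oligonucleotide without G runs, so the untreated cultures were the sole controls and an effect of adding any oligonucleotide cannot be told apart from an effect of its sequence. Pu27 has 27 nucleotides, of which 20 are G, with 5 runs of 3 or more G. Pu9- has 20 nucleotides, 15 G and 4 such runs, and Pu5- has 42 nucleotides, 31 G and 7 such runs.

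A G-quadruplex is a 4-stranded structure in which guanines from separate G runs pair into stacked planes around a monovalent cation. G-rich stretches near transcription starts can adopt it, and in the MYC promoter the element that Pu27 copies, NHEIII1, is the best studied example. Pu9- and Pu5- differ from Pu27 in length and G runs, and how far they match that promoter was not examined here. The genes described here stand at successive steps of growth signalling: PDGFA is a secreted ligand, KIT a receptor tyrosine kinase, SRC a cytoplasmic tyrosine kinase, HRAS a small GTPase below such receptors, MYB a transcription factor of immature blood cells, and TERT the catalytic subunit of telomerase. KIT and MYB are known for their part in blood cell progenitors, and TERT for keeping telomeres long in most cancer cell lines.

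Runs that meet a common quadruplex pattern were looked up in RefSeq promoter windows of 300 bases (GRCh38.p14), which reach from 250 bases before a transcription start to 50 bases after it. The pattern was 4 runs of GGG separated by loops of 1 to 7 bases of any kind, searched on both strands, with matches on a strand not allowed to overlap each other. The genes were grouped by reported quadruplexes, and the matches below are pattern matches only. Whether a match is the reported quadruplex of its gene was not tested. Capitals mark the 4 G runs, and each sequence is written 5′ to 3′ on the strand that carries the G runs.
HRAS, chr11:535532-535554, plus strand: GGGttgcGGGcgcaGGGcacGGG
KIT, chr4:54657835-54657853, plus strand: GGGcGGGcgcgaGGGaGGG
KIT, chr4:54657885-54657905, plus strand: GGGaGGGcgctGGGaggaGGG
PDGFA, chr7:519916-519935, minus strand: GGGggaggcGGGgGGGgGGG
PDGFA, chr7:519893-519913, minus strand: GGGggcGGGggcGGGggaGGG
MYB, chr6:135181067-135181089, minus strand: GGGcaGGGagcccGGGgccaGGG
TERT, chr5:1295089-1295106, plus strand: GGGgaGGGgctGGGaGGG
TERT, chr5:1295113-1295135, plus strand: GGGggctGGGccGGGgacccGGG
TERT, chr5:1295137-1295155, plus strand: GGGgtcGGGacGGGgcGGG
In KIT and in the PDGFA window shown, the G runs lie on the strand that reads as the transcript. In HRAS, MYB and TERT they lie on the opposite strand. PDGFA has 4 RefSeq windows, of which 3 held the pattern. SRC has no sequence shown.

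The pattern is common near human transcription starts: 24.86% of all 35116 windows held it on either strand, and 52.31% of those with at least 65% G and C. The windows of the measured genes were G- and C-rich, at 70.33% to 81.67%, against a median of 58.67% over all windows. The longest run of bases shared with Pu27 on either strand was 7 bases for KIT and MYB, 8 for HRAS and TERT and up to 9 for PDGFA, against a median of 7 over all windows. These matches describe the letters of the windows and do not show that a structure forms in U937 cells.

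On the arrays the deposited values are log2 expression values after RMA, a normalisation that gives all arrays nearly the same distribution. Array medians lay between 5.89 and 5.95 as group means. Of the 21 measured markers of U937 and immature monocytes, 18 had a mean of at least 6, with CTSG the highest at 13.88. Markers of other lineages were mostly dim, with 1 of 10 T cell, 2 of 9 B cell, 1 of 6 erythroid, 1 of 10 epithelial, 1 of 10 fibroblast and 0 of 7 mast cell and progenitor markers at 6 or above. Correlations between arrays ranged from 0.967 to 0.999. MYC, the gene whose promoter element Pu27 copies, did not pass the test with any oligonucleotide as a mean over the 3 times. The log2 change was -0.04 with Pu9-, -0.06 with Pu5- and -0.17 with Pu27, where the adjusted p was 0.129 in limma. With Pu27 the 95% interval of this mean was -0.29 to -0.05 (unadjusted p = 0.0088 in limma). The unadjusted p in limma was 0.019 at 24 h, 0.839 at 48 h and 0.038 at 72 h with Pu27, and none of these passed after adjustment. In untreated cells MYC fell by 0.53 on the log2 scale at 72 h relative to 0 h (adjusted p = 0.00059).

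None of the 6 oncogenes passed the test against untreated cells with any oligonucleotide. As a mean over 24, 48 and 72 h, 0 of 6 were called with Pu27, where 3.98% of all genes were called, 0 of 6 with Pu9-, where 0.0882% were called, and 0 of 6 with Pu5-, where 0.254% were called. Read against these shares, counts of 0 do not set the 6 oncogenes apart from other genes. In limma's moderated test, none of the 18 differences over the mean of the times had even an unadjusted p under 0.05. The median change of the 6 genes was 0.01 with Pu27, 0.06 with Pu9- and 0.02 with Pu5- on the log2 scale, beside medians between -0.01 and 0.01 over all genes.

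At single times the count was likewise 0 of 6 in each of 9 comparisons. The share of all genes called was 0.0662% at 24 h, 0.193% at 48 h and 5.08% at 72 h with Pu27. With Pu9- it was 0.0165% at 24 h, 0.0165% at 48 h and 0.96% at 72 h, and with Pu5- 0.0165% at 24 h, 0.0165% at 48 h and 0.778% at 72 h. A single one of these differences had an unadjusted p under 0.05 in limma, that of KIT with Pu9- at 48 h. A moderated F test asked whether the effect of an oligonucleotide differed between the 3 times. It called 0 of the 6 genes for any oligonucleotide, with 0 at an unadjusted p under 0.05, and 0.0662% of all genes.

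**Figure D1:**
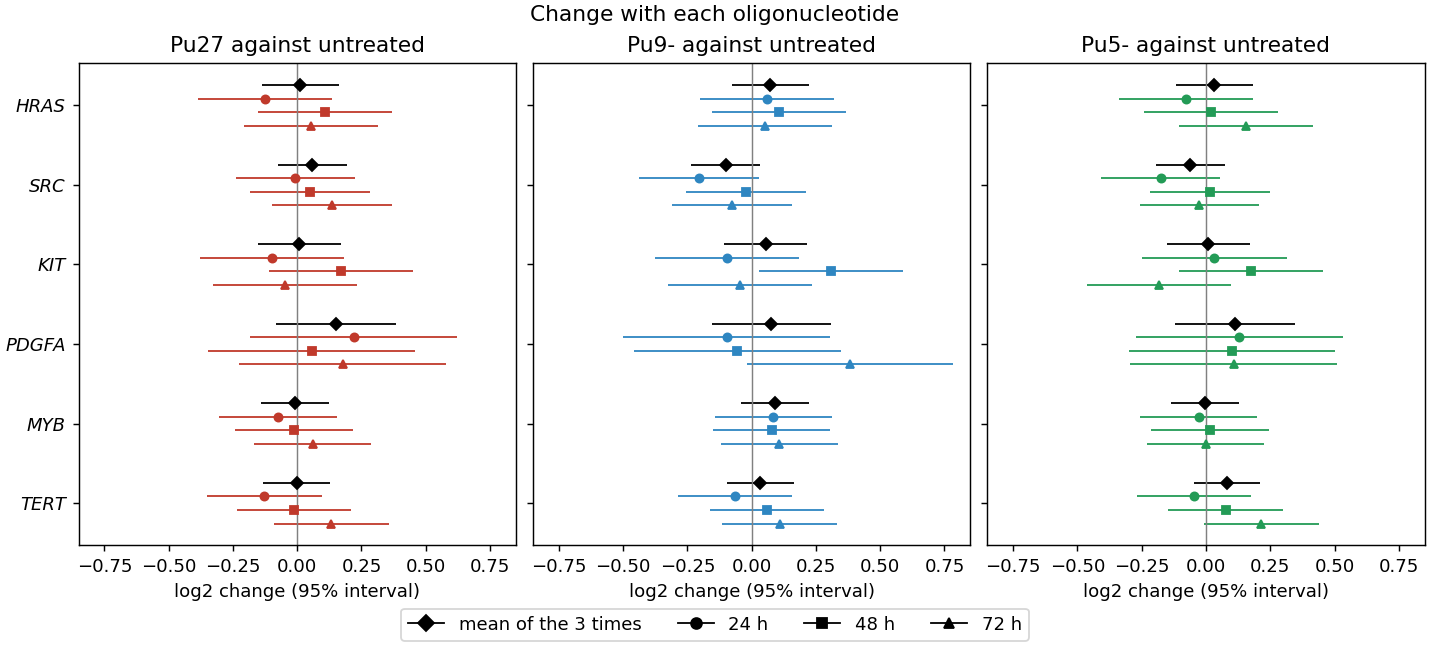
Log2 change against time-matched untreated cells (x axis, with 95% intervals) for the 6 oncogenes, 1 panel per oligonucleotide, as the mean of the 3 times (black diamonds) and at 24, 48 and 72 h (coloured symbols). The intervals of the means all include 0 and reach no further than -0.23 and 0.38, and 1 single-time interval, KIT with Pu9- at 48 h, lies above 0.

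For the genes other than KIT, the intervals bound how large a change in the RMA values could have been missed. RMA compresses differences between dim probe sets, so they do not bound the change in the RNA itself. Over the 3 oligonucleotides, the 95% intervals of the mean change lay between -0.14 and 0.22 for HRAS, between -0.14 and 0.22 for MYB and between -0.13 and 0.21 for TERT. Those of SRC lay between -0.23 and 0.19 and those of PDGFA between -0.16 and 0.38. The highest bound, for PDGFA with Pu27, corresponds to 1.30-fold higher expression. At a single time the intervals were wider, and the highest bound was 1.72-fold, for PDGFA with Pu9- at 72 h.

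HRAS changed with time in culture in every arm. HRAS relays signals from growth factor receptors to the RAF and ERK kinases. In untreated cells its log2 values were 7.05, 7.11 and 6.96 at 0 h, 8.21, 7.75 and 7.93 at 24 h, 7.20, 7.03 and 7.32 at 48 h, and 6.87, 6.77 and 6.68 at 72 h. The 24 h values all lay above those of every other untreated time, and the 72 h values all lay below the 0 h values. The share of all genes that separated in this way is not given here. Relative to 0 h, HRAS was 1.90-fold higher at 24 h (log2 change 0.92, 95% interval 0.66 to 1.18, adjusted p = 5.4e-07). It was the only one of the 6 genes called in that comparison, where 28.6% of all genes were called. At 72 h its change relative to 0 h, -0.26, did not pass the test (adjusted p = 0.175).

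The treated cultures followed the same course. With Pu27 the HRAS values were 8.07, 7.76 and 7.68 at 24 h, 7.26, 7.24 and 7.37 at 48 h, and 6.62, 6.88 and 6.98 at 72 h. With Pu9- they were 7.92, 8.07 and 8.08 at 24 h, 7.29, 7.27 and 7.30 at 48 h, and 6.73, 6.78 and 6.96 at 72 h. With Pu5- they were 8.26, 7.60 and 7.79 at 24 h, 7.24, 7.21 and 7.15 at 48 h, and 6.73, 7.06 and 6.996 at 72 h. In every arm the 3 times did not overlap, with 24 h highest and 72 h lowest. Without the share of all genes that separated likewise, this does not set HRAS apart. Treated and untreated cultures of the same time overlapped throughout.

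Between 72 h and 24 h HRAS fell in all 4 arms, by 1.01 on the log2 scale with Pu27, 1.20 with Pu9-, 0.96 with Pu5- and 1.19 in untreated cells. These are falls of 2.01-fold, 2.29-fold, 1.94-fold and 2.28-fold, with the largest adjusted p at 1.4e-07 (with Pu5-). Between 48 h and 24 h it fell by 0.55 with Pu27, 0.73 with Pu9-, 0.68 with Pu5- and 0.78 in untreated cells (largest adjusted p = 0.0014, with Pu27). The second HRAS probe set followed the first with a correlation of 0.979 over the 39 arrays and fell by 1.26, 1.32, 1.19 and 1.45 on the log2 scale at 72 h relative to 24 h with Pu27, Pu9-, Pu5- and no oligonucleotide. In bulk RNA a smaller share of cells that express a gene and less of its RNA per cell cannot be told apart.

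The course of HRAS followed the largest component of variation between arrays. The number of genes that rose and fell as HRAS did was not counted. The first principal component of all genes held 57.9% of the variance between arrays, and HRAS correlated with it at 0.988 over the 13 group means. Of all genes, 36.4%, 35.5%, 36.1% and 35.5% were called at 72 h relative to 24 h with Pu27, Pu9-, Pu5- and no oligonucleotide, and 21.9%, 22.8%, 23% and 22.5% at 48 h relative to 24 h. Among these 6 oncogenes, 2, 1, 1 and 1 were called at 72 h and 2, 2, 2 and 1 at 48 h, in the same order of arms. A measure of RNA quality moved with time too: the 3′ minus 5′ difference of the ACTB control probe sets averaged 2.24, 2.10, 2.04 and 2.05 at 72 h, against 2.03, 1.90, 1.90 and 1.97 at 24 h, in that order of arms. With this difference as a covariate the falls of HRAS were 1.03, 1.21, 0.97 and 1.19 (largest adjusted p = 5.0e-07 in limma, with Pu27). The difference itself moved with time, so this fit cannot separate RNA quality from time. At 72 h the ACTB difference also varied between arms, with all Pu27 values (2.30, 2.15 and 2.26) above all untreated ones (1.97, 2.11 and 2.07). Whether this bears on the list genes called with Pu27 at 72 h was not tested.

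**Figure D2:**
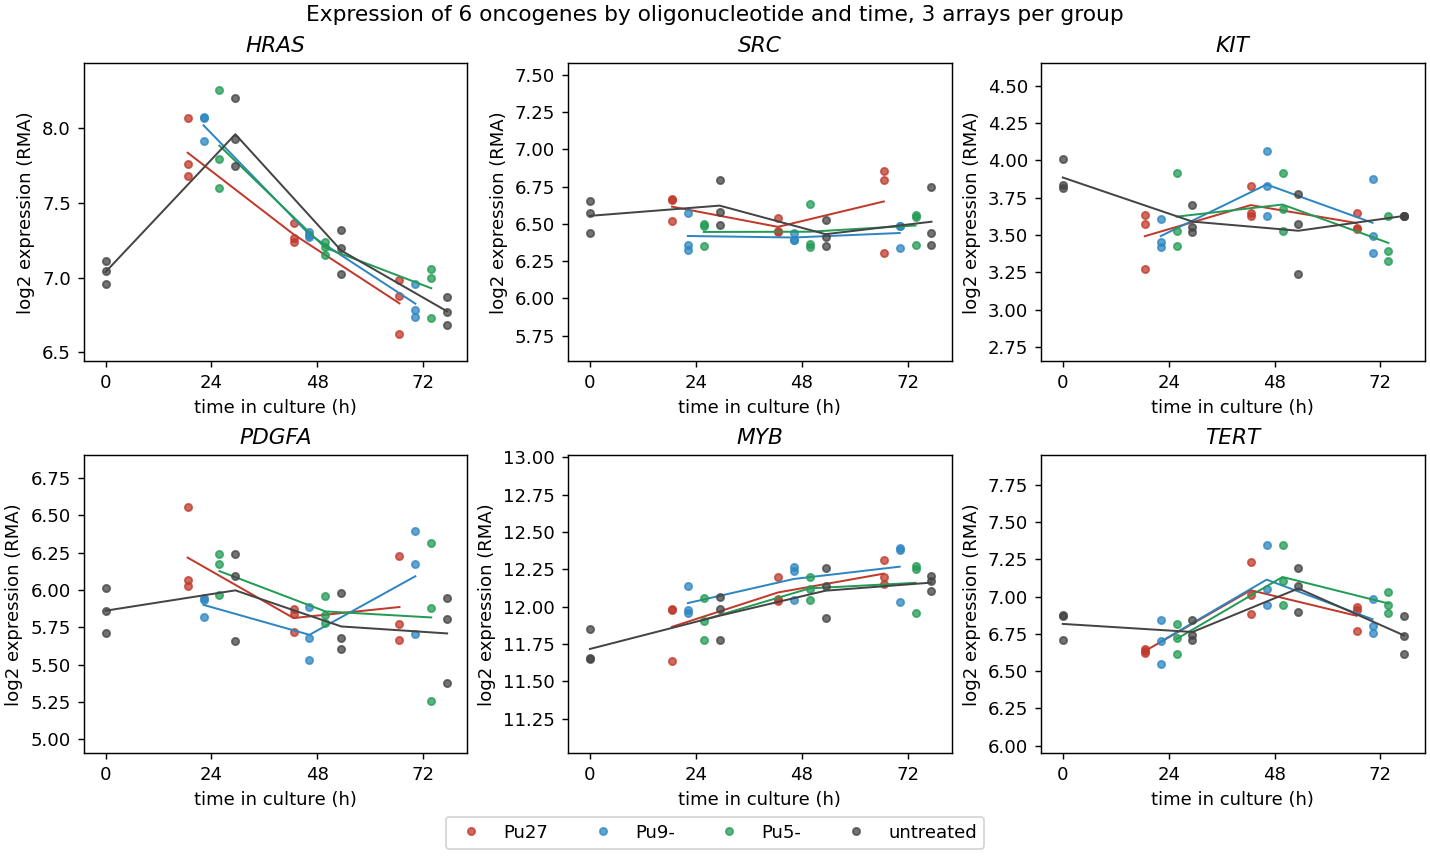
Log2 expression (y axis, RMA values) of the 6 oncogenes by time in culture (x axis, h), with a point for each array and lines through the group means; points of the 4 arms are set side by side around each time for legibility, and the 0 h samples are untreated. Each panel spans 2 log2 units. HRAS is highest at 24 h and lowest at 72 h in all 4 arms, and its values in each oligonucleotide arm overlap its untreated values of the same time.

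Genes around HRAS in the pathway did not pass the test with any oligonucleotide, either as a mean over times or at 72 h. This held for 27 measured RAS proteins, exchange factors and GTPase-activating proteins, for 19 RAS effectors and ERK cascade kinases and for 9 enzymes that attach RAS to membranes. As a mean over times, 3.98%, 0.0882% and 0.254% of all genes were called with Pu27, Pu9- and Pu5-. At 72 h the shares were 5.08%, 0.96% and 0.778%. Read against these shares, counts of 0 do not set these lists apart from other genes. In untreated cells at 72 h relative to 0 h, 7.61% of all genes were called higher and 7.99% lower, 15.6% together. There, 3 of the 27 RAS regulators were higher and 2 lower, led by SPRED2, an inhibitor of RAF activation (log2 change -0.75, adjusted p = 1.1e-05), and SOS2, an exchange factor for RAS (0.72, adjusted p = 5.3e-05). The others were SOS1 and RASA3, both higher, and SHOC2, which was lower. Of the 19 effectors and kinases, 0 were higher and 3 lower, led by ELK1, a transcription factor phosphorylated by ERK (-0.51, adjusted p = 0.0031), and PIK3CG, a catalytic subunit of PI3 kinase (-0.39, adjusted p = 0.0242), with the kinase MAPK3 (-0.30) the third. Among the membrane enzymes FNTA, the subunit shared by both enzymes that add lipid tails to RAS-like proteins, was called higher (0.28, adjusted p = 0.0039) and none lower.

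MYB, which keeps blood cell progenitors dividing and immature, rose with time in untreated cells. Its log2 values were 11.85, 11.65 and 11.65 at 0 h, 11.77, 12.06 and 11.98 at 24 h, 11.92, 12.26 and 12.14 at 48 h, and 12.11, 12.20 and 12.17 at 72 h. The 48 h and 72 h values all lay above the 0 h values, and the 24 h values overlapped them. Since the share of all genes that separated likewise is not given, this does not set MYB apart. MYB was 1.36-fold higher at 72 h than at 0 h (log2 change 0.44, 95% interval 0.22 to 0.67, adjusted p = 0.0053), and it was the single gene of the 6 called there, where 15.6% of all genes were called. This call was lost without replicate 2 of every group (0.39, adjusted p = 0.205), without replicate 3 of every group (0.41, adjusted p = 0.112) and with the mean of both probe sets (0.31, adjusted p = 0.0508). At 48 h MYB was the single gene called as well, where 5.18% of all genes were called (0.39, adjusted p = 0.0344). Without 48 h replicate 2 the change was 0.32 (adjusted p = 0.198), without 48 h replicate 3 it was 0.37 (adjusted p = 0.0788), and without 0 h replicate 2 or 3 it was 0.36 (adjusted p = 0.119 and 0.116).

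The oligonucleotide arms had MYB values in the same range. With Pu27 they were 11.64, 11.97 and 11.98 at 24 h, 12.04, 12.05 and 12.20 at 48 h, and 12.15, 12.31 and 12.20 at 72 h. With Pu9- they were 11.98, 11.96 and 12.14 at 24 h, 12.05, 12.27 and 12.24 at 48 h, and 12.03, 12.39 and 12.38 at 72 h. With Pu5- they were 11.78, 11.90 and 12.06 at 24 h, 12.05, 12.12 and 12.20 at 48 h, and 11.96, 12.25 and 12.27 at 72 h. All 3 arms overlapped the untreated values of the same time at each time. Relative to 24 h, MYB at 72 h was called with Pu27 (0.36, adjusted p = 0.0109), and its changes of 0.24 with Pu9-, 0.25 with Pu5- and 0.22 without oligonucleotide did not pass the test. The Pu27 call was lost without 24 h replicate 1, the lowest of that group (0.24, adjusted p = 0.125), and without 72 h replicate 2 (0.31, adjusted p = 0.0553). It was also lost with the ACTB difference as a covariate (0.31, adjusted p = 0.0541). Same-numbered replicates of Pu5- at 24 h and 72 h deviated together, and with the replicate number as a block MYB was called there too (adjusted p = 0.0229), which made 2 of the 6 genes called in that comparison, where 38.1% of all genes were called with the block. The difference of these time courses from the untreated one was not called for any oligonucleotide (F test, adjusted p = 0.979 for Pu27).

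Both MYB probe sets were bright, with means of 12.06 and 10.27, but the second followed the first with a correlation of only 0.54 over the 39 arrays. Its change at 72 h relative to 0 h in untreated cells was 0.17 (adjusted p = 0.439 over all probe sets), so the rise of MYB rests on a single probe set. The MYB family and its cofactors were measured by 19 genes. As a mean over times 2 of them were higher and 1 lower with Pu27, where 2.79% of all genes were higher and 1.19% lower, and none was called with Pu9- or Pu5-. The higher genes were MYBL1, a germ cell and B cell relative of MYB (log2 change 0.37, adjusted p = 0.0013), and MYBL2, the relative that acts in cycling cells (0.31, adjusted p = 0.0242), and the lower one was GFI1, a repressor of blood cell genes (-0.18). At 72 h with Pu27, where 2.94% of all genes were higher and 2.15% lower, MYBL2 was higher by 0.66 (adjusted p = 0.0041) and MYBL1 by 0.52 (adjusted p = 0.0094), and FBXW7 was lower (-0.38). MYB itself changed by 0.06 in that comparison (adjusted p = 0.840).

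Among 20 described MYB target genes, CCNE1, the cyclin of S phase entry, was higher (0.52, adjusted p = 8.3e-05) and CCNB1, the mitotic cyclin, lower (-0.34, adjusted p = 6.2e-05) with Pu27 as a mean over times. The same pair was called with Pu27 at 72 h (0.46 for CCNE1 and -0.35 for CCNB1). Of all genes, 3.98% were called with Pu27 as a mean over times and 5.08% at 72 h. With Pu5- at 72 h, where 0.778% of all genes were called, CCNB1 (-0.55, adjusted p = 0.00076) and TOP2A, the DNA topoisomerase of dividing cells (-0.32, adjusted p = 0.0210), were lower. In untreated cells at 72 h relative to 0 h, where 15.6% of all genes were called, 1 target was higher and 5 lower. They were led by PRTN3, a granule protease (-1.19, adjusted p = 0.0221), and MYC. CCNE1, CCNB1 and GATA3 were the others that were lower, and IGF1R was higher. Of the MYB family there, 3 including MYB were higher and 2 lower, led by FBXW7, which marks MYB and MYC proteins for degradation (0.64, adjusted p = 4.0e-05), with MYBL1 (0.46) higher and MYBL2 (-0.49) and CEBPA (-0.45) lower.

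TERT had its highest group mean at 48 h in all 4 arms. In untreated cells its log2 values were 6.87, 6.87 and 6.71 at 0 h, 6.74, 6.71 and 6.84 at 24 h, 7.07, 6.90 and 7.19 at 48 h, and 6.73, 6.87 and 6.61 at 72 h. With Pu27 they were 6.65, 6.62 and 6.64 at 24 h, 7.01, 7.23 and 6.88 at 48 h, and 6.77, 6.93 and 6.91 at 72 h. With Pu9- they were 6.55, 6.70 and 6.85 at 24 h, 6.94, 7.05 and 7.35 at 48 h, and 6.98, 6.76 and 6.80 at 72 h. In each of these arms the 48 h values lay above all 24 h values. The same held with Pu5-, where they were 6.61, 6.72 and 6.82 at 24 h, 6.94, 7.11 and 7.35 at 48 h, and 7.03, 6.94 and 6.89 at 72 h. Across the arms, 21.9% to 23% of all genes were called at 48 h relative to 24 h. How many of all genes separated without overlap is not given here, so the separation does not set TERT apart.

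At 48 h relative to 24 h TERT was called higher with Pu27 (log2 change 0.41, adjusted p = 0.0053), with Pu9- (0.42, adjusted p = 0.0043) and with Pu5- (0.42, adjusted p = 0.0042). The change in untreated cells was 0.29 and missed the threshold (adjusted p = 0.0524). With the replicate number as a block it passed (adjusted p = 0.0453), although the numbers were not shown to pair these samples, and it passed with dim genes left out (adjusted p = 0.0298) and with the ACTB covariate (adjusted p = 0.0497). The time courses were not shown to differ, since the F test of a differing effect between times gave TERT adjusted p values of 0.861, 0.9998 and 0.9995 for Pu27, Pu9- and Pu5-. Each call was lost with a replicate left out: without 48 h replicate 2 with Pu27 (0.31, adjusted p = 0.0691), without 48 h replicate 3 with Pu9- (0.30, adjusted p = 0.0732) and without 48 h replicate 3 with Pu5- (0.31, adjusted p = 0.0643).

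The other TERT probe set did not share this course. It had a mean of 4.36 and a correlation of 0.08 with the first over the 39 arrays, and it changed by 0.03, -0.07, -0.05 and 0.15 at 48 h relative to 24 h with Pu27, Pu9-, Pu5- and no oligonucleotide. Against untreated cells of the same time, TERT values with Pu5- at 72 h all lay above the untreated ones (0.22, 95% interval -0.01 to 0.44, adjusted p = 0.551), and those with Pu27 at 24 h all lay below them (-0.13, adjusted p = 0.9997). Neither passed the test, and the share of all genes that separated likewise in these comparisons is not given here.

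**Figure D3:**
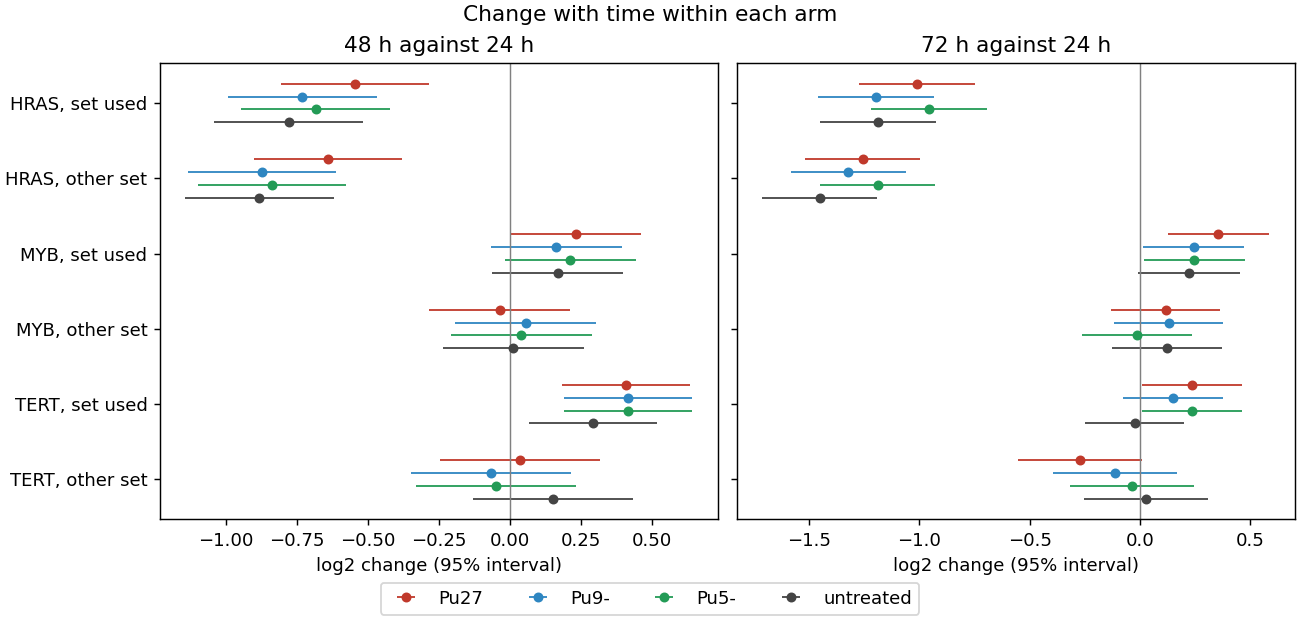
Log2 change at 48 h (left) and 72 h (right) relative to 24 h (x axis, with 95% intervals) for both probe sets of HRAS, MYB and TERT, coloured by arm; "set used" is the probe set with the higher mean. Both HRAS probe sets fell in all 4 arms, while the intervals of the other MYB and TERT probe sets all include 0.

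Of 22 measured genes of the telomerase complex and shelterin, the protein cap of telomeres, 0 were called with any oligonucleotide as a mean over times or at 72 h. Those comparisons called 0.0882% to 5.08% of all genes, so counts of 0 do not set this list apart. In untreated cells at 72 h relative to 0 h, 1 of the 22 was higher and 5 lower. Of all genes, 7.61% were called higher and 7.99% lower in that comparison. TNKS, which releases the shelterin protein TRF1 from telomeres, was higher (0.55, adjusted p = 0.0010), and RUVBL1, an ATPase that helps assemble telomerase, was lower (-0.42, adjusted p = 0.0041), as were NHP2, NOP10, WRAP53 and RUVBL2. TERT itself changed by -0.08 there (adjusted p = 0.719).

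SRC, a membrane-bound tyrosine kinase of adhesion and growth factor signalling, varied least. Its group means spanned 0.24 log2 units, from 6.41 with Pu9- at 48 h to 6.65 with Pu27 at 72 h, and the SD between replicates was 0.14. The Pu27 group at 72 h was split, with values of 6.80, 6.30 and 6.85, against 6.44, 6.36 and 6.75 in untreated cells. SRC was measured by a probe set whose suffix marks probes that may bind other transcripts, and the second SRC probe set followed it with a correlation of 0.56. As a mean over times SRC was 0.16 higher with Pu27 than with Pu9- (95% interval 0.03 to 0.29, unadjusted p = 0.0212 in limma), which did not pass after adjustment (adjusted p = 0.293). Of 23 SRC family kinases and regulators, 1 was called with an oligonucleotide as a mean over times or at 72 h: YES1, a close relative of SRC, was higher with Pu9- at 72 h (0.59, adjusted p = 0.0123). That comparison called 0.96% of all genes. In untreated cells at 72 h relative to 0 h, where 15.6% of all genes were called, CSK, the kinase that inhibits SRC, was lower (-0.52, adjusted p = 0.0208) and CBL, a ubiquitin ligase, was higher (0.37, adjusted p = 0.0261).

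KIT, the receptor of stem cell factor, was at or below background. Its brightest probe set ranged from 3.24 to 4.06 over the 39 arrays, and its other probe sets had means of 3.40 and 3.09, while the 23 background control probe sets, whose own means ran from 2.48 to 10.3, averaged 4.29 to 4.42 per group. The brightest probe set correlated with the others at -0.10 and 0.14. With Pu9- at 48 h its values were 3.63, 4.06 and 3.83, against 3.24, 3.77 and 3.57 in untreated cells (log2 change 0.31, unadjusted p = 0.0311 in limma, adjusted p = 0.9999). The groups overlapped, and at this brightness no fold change of KIT is read. Among 17 genes of KIT ligand, related receptors and signalling, LYL1, a progenitor transcription factor, was lower with Pu27 as a mean over times (-0.22, adjusted p = 0.0441). FLT3, a receptor related to KIT, was higher with Pu27 at 72 h (0.66, adjusted p = 0.0066), and SOCS6, which binds activated KIT, was higher with Pu9- at 72 h (0.58, adjusted p = 0.0202). The shares of all genes called were 3.98% with Pu27 as a mean over times, 5.08% with Pu27 at 72 h and 0.96% with Pu9- at 72 h. In untreated cells 3 of the 17 were higher at 72 h than at 0 h and 0 lower, led by GATA2, a progenitor transcription factor (0.77, adjusted p = 0.0027), and SOCS6 (0.45, adjusted p = 0.0151), with STAT5B the third. Of all genes, 7.61% were called higher and 7.99% lower in that comparison.

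PDGFA, a growth factor ligand for mesenchymal cells, was the most variable between replicates, with an SD of 0.26 within groups. Its values with Pu9- at 72 h were 5.71, 6.17 and 6.40, against 5.38, 5.80 and 5.95 in untreated cells, and the groups overlapped (log2 change 0.38, 95% interval -0.02 to 0.79, adjusted p = 0.416). Within each replicate number the Pu9- value was the higher. Over all genes, same-numbered replicates of these groups deviated together (correlations of 0.20 to 0.38). The interval does not use the replicate numbers, so it reflects the spread between replicates and not that of the paired differences. With Pu5- at 72 h the 3 values were 5.88, 5.25 and 6.32, which spans most of the range of this gene over the whole study. The probe set used had a mean of 5.90. The other PDGFA probe sets were dimmer and followed it with correlations of only 0.46, 0.48 and -0.04 over the 39 arrays, so the PDGFA values rest on a single probe set. PDGFA averaged 0.15 higher with Pu27, 0.08 higher with Pu9- and 0.11 higher with Pu5- over the 3 times, and each 95% interval included 0. None of 17 PDGF and VEGF ligands and receptors was called with an oligonucleotide as a mean over times or at 72 h, nor in untreated cells at 72 h relative to 0 h, where 15.6% of all genes were called. The oligonucleotide comparisons called 0.0882% to 5.08% of all genes, so counts of 0 there do not set this list apart.

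The 3 oligonucleotides differ in length and number of G runs, and the 6 oncogenes did not separate them. As means over times, 0 of 6 were called for Pu27 against Pu9-, where 1.38% of all genes were called, 0 of 6 for Pu27 against Pu5-, where 0.248% were called, and 0 of 6 for Pu9- against Pu5-, where 0% were called. Apart from SRC with Pu27 against Pu9-, none of these 18 differences had an unadjusted p under 0.05 in limma. In the 9 comparisons of a pair at a single time 0 of 6 were called and 0 had an unadjusted p under 0.05, while 1.61% of all genes were called in at least 1 of them. The intervals of the mean differences ran from -0.21 to 0.19 for HRAS, from -0.23 to 0.23 for MYB and from -0.21 to 0.09 for TERT. For PDGFA they ran from -0.27 to 0.31, which is 1.20-fold lower to 1.24-fold higher.

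Genes with the most similar course were taken over the 13 group means among genes that reached a log2 value of 6 in some group, as a description that shares arrays and time effects with the gene itself. For HRAS they were STIP1, a cochaperone (Pearson r = 0.995), and PNO1, a ribosome assembly factor (0.994). For MYB they were FANCM, a DNA repair helicase (0.951), and SUZ12, a Polycomb subunit (0.940), and for TERT EXOSC7, an RNA exosome subunit (0.953), and NUDT19 (0.939). The likeness was weaker for PDGFA (SLC25A25 at 0.888 and MAFF at 0.878), SRC (CHRNA2 at 0.825 and IGFBP4 at 0.773) and KIT (OGFOD3 at 0.808 and GALNS at 0.794). Among the 6 genes themselves, correlations over the 13 group means ran from -0.63 for PDGFA with TERT to 0.50 for HRAS with PDGFA, so they did not follow 1 common course.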

How the data were processed

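Gene expression was measured on 39 Affymetrix 3′ IVT arrays from U937 cells, 13 groups of 3, and the labels' protocols speak of 3 repeat experiments without detailing them further, so the p-values reflect the spread between arrays, which may be technical. Per the submitters' processing notes, the authors made the deposited log2 values with RMA and name limma (versions not given in the sources used here). RMA compresses differences between dim probe sets, and a change in total RNA per cell is not measured. The number of arrays limits the precision.

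Of 49495 deposited probe sets, 44988 had 1 gene symbol in the platform table, 1832 had several and were left out, and 202 were controls. A gene's value is its probe set with the highest mean. Groups were compared with limma 3.58.1 in R 4.3.3 (1 model of 13 group means, empirical Bayes, Benjamini-Hochberg adjustment over 18132 genes in each comparison, threshold 0.05); the code was tested on simulated data. Alternatives were the compared groups alone, every probe set, the mean of a gene's probe sets, dim genes left out, a common median, the ACTB difference as covariate, trended and robust priors, the replicate number as a block, and each replicate left out.

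The genes and lists were chosen with earlier results of these data known. Named genes are all listed oncogenes, MYC, the 2 largest changes past the threshold in each pathway list and comparison, and the 2 genes most correlated with each oncogene; other list members behind counts of 5 or fewer are named too, chosen after their values were seen. Comparisons with 24 h within an arm were added after the data had been seen. Same-numbered replicates deviated together (correlations over 0.1 in every pair) for each mean over times, for which the replicate block changed no call. Against untreated cells they also did so at 24, 48 and 72 h with Pu27, and at 48 and 72 h with Pu9- and Pu5-. The block is a single shift per replicate number over all 13 groups. It does not take up a pairing that differs between times, so an unchanged call does not show that the pairing is without effect. Promoter sequences are RefSeq's (GRCh38.p14); 6 of the 7 symbols had an entry.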

Additional observations from a re-analysis of the deposited data

How the results depend on the processing

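The count of 0 oncogenes called held in all 29 alternatives for each mean over times against untreated cells or between oligonucleotides, in all 17 for each single time against untreated cells, and in all 47 for the F tests. The changes of HRAS at 24 h against 0 h in untreated cells, and at 48 h and 72 h against 24 h in each arm, passed the threshold in all 17 alternatives of each, and no result reversed. Counts over time moved by single genes. For untreated cells at 24 h against 0 h, 2 genes were called over every probe set and with a common median, and 1 to 2 with a replicate left out. At 48 h against 0 h the count was 0 with the compared groups alone, with the mean of probe sets and with the ACTB covariate, and 0 to 1 with a replicate left out. At 72 h against 0 h it was 2 over every probe set, 0 with the mean of probe sets, and 0 to 1 with a replicate left out, MYB being lost without replicate 2 (log2 change 0.39, adjusted p = 0.205) or 3 (0.41, adjusted p = 0.112) of every group. At 48 h against 24 h the mean of probe sets gave 1 with each oligonucleotide, leaving out a replicate gave 1 to 2 with Pu27 and Pu5- and 1 to 3 with Pu9-, and untreated cells gave 2 with the replicate block (TERT added), with dim genes left out and with the ACTB covariate, and 1 to 2 without a replicate. At 72 h against 24 h Pu27 gave 1 with the mean of probe sets and with a common median; Pu9-, Pu5- and untreated cells gave 2 with the replicate block (MYB added, adjusted p = 0.0256, 0.0229 and 0.0440); and leaving out a replicate gave 1 to 2 with Pu27, Pu9- and Pu5-. TERT at 48 h against 24 h was also lost without replicate 2 of every group (adjusted p = 0.233, 0.0539 and 0.0614 with Pu27, Pu9- and Pu5-). The block changed no other call. Apart from Pu5- at 72 h, the numbers did not pair the samples of these time comparisons. The cause of these moves was not tested beyond what each alternative changes.

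KIT and the other TERT probe set lay near the background control probe sets, so changes in them would be compressed. NRAS is not analysed here.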

Other observations

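Further lists bear on G-quadruplex promoters. Of 22 measured regulators of the TERT promoter, E2F1, the cell cycle transcription factor, was called higher with Pu27 as a mean over times (log2 change 0.28, adjusted p = 0.0470), with Pu27 at 72 h (0.76, adjusted p = 0.0012) and with Pu5- at 72 h (0.80, adjusted p = 0.0029). These comparisons called 3.98%, 5.08% and 0.778% of all genes, in that order. In untreated cells at 72 h relative to 0 h, where 15.6% of all genes were called, 2 of the 22 were higher and 4 lower. They were led by WT1, a zinc finger factor (-0.65, adjusted p = 0.0047), and E2F1 (-0.62, adjusted p = 0.0026). GABPA and SP3 were the higher ones, and MYC and ETS1 were lower too. TERT itself passed the test in none of these comparisons.

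None of 17 zinc finger and G-quadruplex binding factors of these promoters was called with an oligonucleotide as a mean over times or at 72 h. Those comparisons called 0.0882% to 5.08% of all genes, so counts of 0 do not set this list apart. In untreated cells at 72 h relative to 0 h, where 15.6% of all genes were called, 2 of the 17 were higher and 2 lower. They were led by XRN1, an RNA exonuclease (0.52, adjusted p = 0.00038), and EGR1, an immediate early zinc finger factor (-0.49, adjusted p = 0.0350), with SP3 higher and THAP11 lower. Of 21 other genes with a described promoter G-quadruplex, 0 were called with an oligonucleotide as a mean over times or at 72 h, which the same shares of all genes do not set apart either. In untreated cells at 72 h relative to 0 h, RB1, the retinoblastoma protein, was higher (0.55, adjusted p = 0.0147) and MYC lower.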
